A study of Sus scrofa with 9 samples.

Results

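Solute carriers are membrane proteins that move sugars, amino acids, ions, vitamins, metals and other small molecules across the plasma membrane and the membranes of organelles. They are named by family (SLC, or SLCO for the organic anion carriers), and members of a family usually share a kind of substrate. In the testis, Sertoli cells take up glucose and release lactate for the germ cells, and carriers on both sides of the seminiferous epithelium set what reaches cells behind the blood-testis barrier. Sperm rely on bicarbonate, proton, zinc and lactate carriers for motility and capacitation.

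The members described here were every gene whose name on the array began with an SLC family name or an SLCO number. They were 155 genes, read by 293 of the 60889 non-control probes of a custom 60K porcine Agilent array. For each gene, the probe with the highest mean in the log2 table deposited by the authors stood for it. That table held a probe of 121 of the genes, and the other 34 were given the probe with the highest mean normalized signal instead. Of the 155 genes, 79 had 1 probe and 76 had several, up to 10 for SLC25A3, which carries phosphate into mitochondria. On all 9 arrays, 106 of the representative probes were well above background, and 22 were so on none. A gene was tested in a comparison when its probe was well above background on 2 or more of the 3 arrays of either group, which 125 genes met in any comparison and 30 did not. Since a probe could pass through the group in which it was bright, the shares given below are shares of tested members. Members were grouped by the substrate of their family. The pair SLC9A3R1 and SLC9A3R2 fell under the naming rule but are scaffold proteins that hold exchangers at the membrane, and were kept as a class of their own.

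RNA came from whole testicular biopsies, with 3 arrays in each of 3 groups. The Control group was fertile boars with normal semen and the 38,XY karyotype, but the sources used here do not say which boar each array holds. The t(1;14) group was 3 separate samples of 1 oligo-astheno-teratospermic crossbred Landrace and Duroc boar (38,XY,trcp(1;14)), whose sperm are few, poorly motile and malformed and who carries a reciprocal translocation between chromosomes 1 and 14. The Oligospermic group was 3 samples of 1 boar with few sperm and the 38,XY karyotype. Ages were not given in the sources used here. The tests therefore measured the spread between arrays of these few animals, and whatever else sets the t(1;14) boar apart from the others cannot be told apart from its translocation. Each of the 3 slides held 1 array of each group. Between 37087 and 40632 of the probes were well above background on an array. The median SD between the arrays of a group, over tested members, was 0.26 for Control, 0.147 for t(1;14) and 0.19 for Oligospermic on the log2 scale. Precision is limited by having 3 arrays in a group.

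The tissue carried its labelled cells in all 3 groups. The protamine PRM1, which packs the DNA of late spermatids, was saturated on all 9 arrays, so its level is not compared between groups. ACRV1, a protein of the acrosome of spermatids, was well above background and unsaturated on every array and averaged 12.9 in Control, 10.5 in t(1;14) and 12.9 in Oligospermic (log2 fold change of t(1;14) against Control -2.40, adjusted p = 0.00012). The cell type lists did not all stay level. All 6 of 6 Leydig cell markers were well above background in each group, and their mean log2 level lay between 10.3 and 10.6 in Control, 12.4 and 12.6 in t(1;14), and 10.5 and 11.0 in Oligospermic. The 5 of 8 listed spermatid markers on the array averaged between 13.9 and 14.1, 12.7 and 12.8, and 13.9 and 14.0 in the same order, with PRM1, PRM2 and TNP2 in the mean although they were saturated on some or all arrays, so these means can understate a difference. The 5 of 7 peritubular and vascular markers averaged between 9.09 and 9.91, 10.1 and 10.2, and 9.58 and 9.66. In t(1;14) against Control, the vascular markers PECAM1, VWF and CDH5 gave log2 fold changes of 1.41, 0.91 and 0.99. The peritubular markers ACTA2 and DES gave -0.21 and -0.31. The 6 of 6 Sertoli markers averaged between 9.22 and 9.64, 9.12 and 9.22, and 9.04 and 9.32. In t(1;14) against Control, WT1, FSHR and GATA4 gave log2 fold changes of -1.43, -0.67 and -0.29. CLDN11, SOX9 and AMH gave 0.61, 0.22 and 0.15. The 3 of 7 spermatocyte markers averaged between 10.3 and 10.5, 10.5 and 10.5, and 9.61 and 9.93. In t(1;14) against Control, SPO11 gave a log2 fold change of -1.03, HORMAD1 0.97 and PIWIL1 0.19. In Oligospermic against Control the same genes gave -2.14, 0.05 and 0.11, so the lower Oligospermic mean came from SPO11 alone. The 3 of 6 spermatogonium markers, of which GFRA1 was not well above background, averaged between 7.41 and 7.80, 8.11 and 8.31, and 7.20 and 7.49, and the 4 of 6 immune markers, of which CD3E was not, between 4.19 and 4.89, 4.86 and 5.21, and 3.86 and 4.12. These shifts between the groups accompany every carrier value below, and their part in them was not tested. In biopsies of whole tissue, fewer cells of a type and less RNA per cell cannot be told apart.

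The probes of the carriers that the comparison of t(1;14) with Control turned on are shown here for 5 of the called genes, 4 of them by 2 probes, so that the stretches behind their readings can be compared. Each is a 60-base probe as deposited, written 5′ to 3′ in lower case, and the first probe of each gene stood for it. For SLC7A9, the first probe is the one that rose and the second was well above background on no array. For SLC35A5, SLC12A5 and SLC41A2, both probes shown were lower in t(1;14), by unequal amounts in the first pair of genes and by similar amounts in SLC41A2. Another SLC35A5 probe is not printed and was higher in t(1;14). The SLC30A4 probe is the one of the zinc carrier that fell the most.
SLC7A9 first probe: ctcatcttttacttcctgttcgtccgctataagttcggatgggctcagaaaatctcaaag
SLC7A9 second probe: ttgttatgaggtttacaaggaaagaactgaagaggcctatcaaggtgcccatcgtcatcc
SLC35A5 first probe: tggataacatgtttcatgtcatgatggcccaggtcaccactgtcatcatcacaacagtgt
SLC35A5 second probe: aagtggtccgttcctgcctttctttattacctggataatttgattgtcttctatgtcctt
SLC12A5 first probe: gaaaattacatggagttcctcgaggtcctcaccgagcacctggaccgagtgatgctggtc
SLC12A5 second probe: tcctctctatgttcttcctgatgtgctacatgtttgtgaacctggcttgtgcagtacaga
SLC41A2 first probe: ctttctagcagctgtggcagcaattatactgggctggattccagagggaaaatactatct
SLC41A2 second probe: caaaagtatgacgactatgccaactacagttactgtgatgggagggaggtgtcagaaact
SLC30A4 first probe: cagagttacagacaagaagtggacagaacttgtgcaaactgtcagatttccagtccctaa

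The first comparison asked how the testis of the translocation carrier differed from that of fertile boars. Between t(1;14) and Control, the carriers that rose were SLC7A9, an amino acid exchanger, and SLC26A3, a chloride and bicarbonate exchanger. Both were tested through the t(1;14) arrays, since 1 and 0 of 3 Control arrays were well above background, and with a filter that both groups had to pass neither was tested. The carriers that fell included the monoamine carrier SLC18A1, the nucleotide sugar carrier SLC35A5, the potassium and chloride cotransporter SLC12A5, the zinc carrier SLC30A4, the mitochondrial carrier SLC25A25, the magnesium carrier SLC41A2 and the vitamin C carrier SLC23A2. Of these, SLC18A1 and SLC25A25 were tested through the Control arrays, since no t(1;14) array was well above background. A member was called at an adjusted p of at most 0.01 by limma (Benjamini-Hochberg over all tested probes) and a log2 fold change of at least 2 in either direction, the threshold of the study's methods. Of 124 tested members, 2 were called higher and 7 lower, and with the filter in both groups 0 and 5. Of the 37273 probes tested with the filter in both groups, 387 were called higher and 1408 lower. The 9 calls are 7.26% of the tested members, beside 5.61% of all tested probes (1.31% higher and 4.3% lower). At a lower fold threshold, a log2 fold change of at least 1, 6 were called higher and 10 lower, which is 12.9% of the tested members beside 19.1% of all tested probes (7.45% higher and 11.7% lower). The 6 became 11 without Control replicate 1 and 3 with the replicate number as a block. With the normexp background correction in place of the processed signals, SLC30A4 and SLC35A5 stayed called at the threshold of the methods and the other 7 did not. The median log2 fold change of the members was 0.05, beside 0.14 for all tested probes, and 67 of 124 members lay within 0.5 of no change. The 3 arrays of t(1;14) did not overlap those of Control for 59 members (47.6%), beside 62% of all tested probes.

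**Figure D1:**
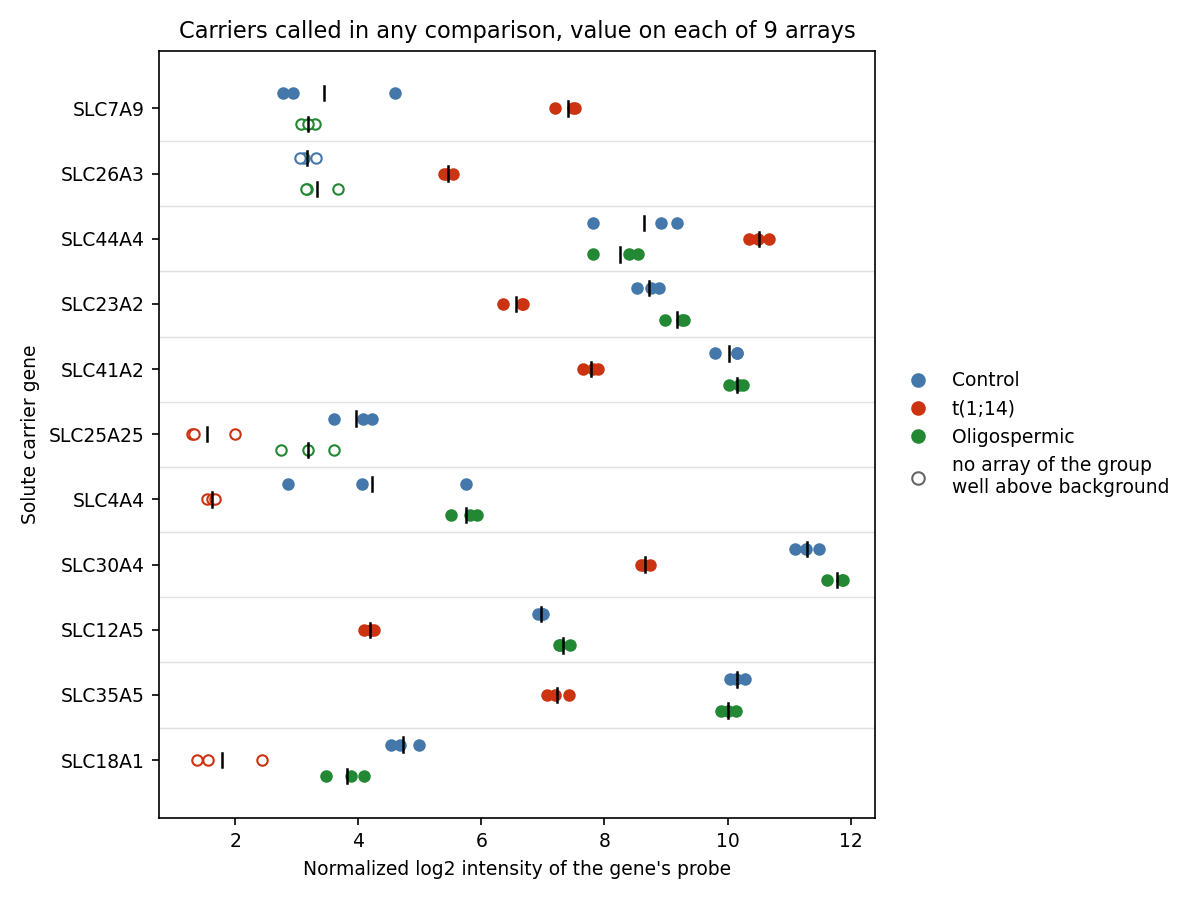
Normalized log2 intensity (horizontal axis) of the representative probe of each of the 11 carriers called in any comparison (rows), on the 3 Control, 3 t(1;14) and 3 Oligospermic arrays. Points are arrays, black ticks are group means, and open points mark a group with no array well above background. The t(1;14) arrays stand apart from both other groups in every row, to the right for SLC7A9, SLC26A3 and SLC44A4 and to the left for the others, and levels of different rows come from different probes and are not compared.

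Among carriers of amino acids, amines and peptides, 18 of 30 members were tested, and the median log2 fold change was -0.01. Of those tested, 1 was called higher and 1 lower, beside 1.31% and 4.3% of all tested probes. SLC7A9 is the light chain of the exchanger of cystine and dibasic amino acids that is defective in cystinuria. Its probe read 4.60, 2.94 and 2.78 on the Control arrays, 7.49, 7.20 and 7.51 on the t(1;14) arrays, and 3.07, 3.29 and 3.18 on the Oligospermic arrays. All t(1;14) arrays were well above background, against 1 of 3 Control arrays and no Oligospermic array. The fitted log2 fold change against Control was 3.96 ± 0.48 (SE, adjusted p = 0.0011), but its size rests on Control values of which only replicate 1 was well above background. On the slide of that array the difference was 2.61. On the other slides it was 4.57 and 4.70, against Control signals that were not well above background. The other SLC7A9 probe was well above background on no array and averaged 2.05 in Control and 1.72 in t(1;14), so the rise rests on 1 probe. SLC3A1, the heavy chain that brings SLC7A9 to the membrane, read 11.01, 10.70 and 11.02 in Control and 11.48, 11.41 and 11.36 in t(1;14), a difference of 0.51 ± 0.13 that was not called (adjusted p = 0.019).

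SLC18A1 loads monoamines such as serotonin into secretory vesicles. It read 4.68, 4.53 and 4.99 on the Control arrays, 2.43, 1.38 and 1.56 on the t(1;14) arrays, and 4.10, 3.47 and 3.88 on the Oligospermic arrays. No t(1;14) array was well above background, so the fold is a bound, and Control was at least 2.18-fold higher (fitted log2 fold change -2.94 ± 0.30, adjusted p = 0.00056). Bounds of this kind set the bright group against the lowest signal well above background on each array, or the dim probe's own signal where that was higher.

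The other amino acid carriers with known roles moved less. SLC3A2, the heavy chain shared by several amino acid exchangers, read 8.63, 7.51 and 8.22 in Control and 9.05, 9.18 and 9.12 in t(1;14), a difference of 0.99 ± 0.28 (adjusted p = 0.026). The groups did not overlap, but the Control arrays were spread over more than 1 log2 unit. SLC6A19, a neutral amino acid carrier of gut and kidney, was tested through the Control arrays, with 1 of 3 t(1;14) arrays well above background, and its fitted log2 fold change was -0.84 ± 0.16 (adjusted p = 0.006). The creatine carrier SLC6A8 and the glutamine carrier SLC38A5 overlapped between t(1;14) and Control, with log2 fold changes of 0.06 ± 0.18 and -0.03 ± 0.24.

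Of the carriers of bicarbonate, sulphate, phosphate and iodide, 11 of 14 were tested, with a median of -0.18. SLC26A3, which exchanges chloride for bicarbonate in the gut and is also known from the male tract, read 3.11, 3.32 and 3.05 in Control, 5.40, 5.44 and 5.54 in t(1;14), and 3.66, 3.17 and 3.14 in Oligospermic. Only t(1;14) arrays were well above background, so t(1;14) was at least 3.69-fold higher than Control (fitted log2 fold change 2.30 ± 0.12, adjusted p = 0.00012) and at least 3.39-fold higher than Oligospermic. A second SLC26A3 probe was above background on 1 t(1;14) array alone and was not tested. Its relative SLC26A6, which supplies bicarbonate to sperm, read 8.51, 8.16 and 8.45 in Control and 8.64, 8.69 and 8.5 in t(1;14), a difference of 0.24 ± 0.14 that was not called.

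SLC4A4 moves sodium together with bicarbonate. It read 5.75, 2.86 and 4.07 on the Control arrays, 1.54, 1.63 and 1.68 on the t(1;14) arrays, and 5.93, 5.81 and 5.50 on the Oligospermic arrays. The groups did not overlap, but the Control arrays spanned nearly 3 log2 units, and the fitted log2 fold change of -2.61 ± 0.67 was not called (adjusted p = 0.019). With 2 of 3 Control arrays and no t(1;14) array well above background, Control was at least 1.54-fold higher. Without Control replicate 2 the fitted value was -3.32 and was called (adjusted p = 0.0056). Against Oligospermic, whose arrays lay close together, SLC4A4 fell (log2 fold change -4.13 ± 0.13, adjusted p = 1.8e-05). No t(1;14) array was well above background, so Oligospermic was at least 4.42-fold higher. SLC34A1, the sodium and phosphate cotransporter best known from the kidney, read 5.77, 5.91 and 6.11 in Control and 4.66, 4.10 and 4.69 in t(1;14) and fell at the lower threshold (log2 fold change -1.45 ± 0.20, adjusted p = 0.0019). That call was lost with normexp (-0.47).

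Among the exchangers of sodium, potassium, calcium, protons and chloride, 8 of 13 members were tested. Of those, 1 was called lower, beside 4.3% of all tested probes. SLC12A5, a potassium and chloride cotransporter best known from neurons, read 6.99, 6.98 and 6.92 in Control, 4.10, 4.21 and 4.26 in t(1;14), and 7.28, 7.25 and 7.45 in Oligospermic. Its log2 fold change was -2.77 ± 0.11 (adjusted p = 0.00012), with -2.78, -2.72 and -2.82 within the slides. The second SLC12A5 probe was lower by 0.97 and was not called (adjusted p = 0.013). SLC9A10, the sodium and proton exchanger of the sperm tail, read 7.85, 8.93 and 8.18 in Control and 7.95, 8.24 and 7.85 in t(1;14), and the groups overlapped (log2 fold change -0.31 ± 0.29).

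**Figure D2:**
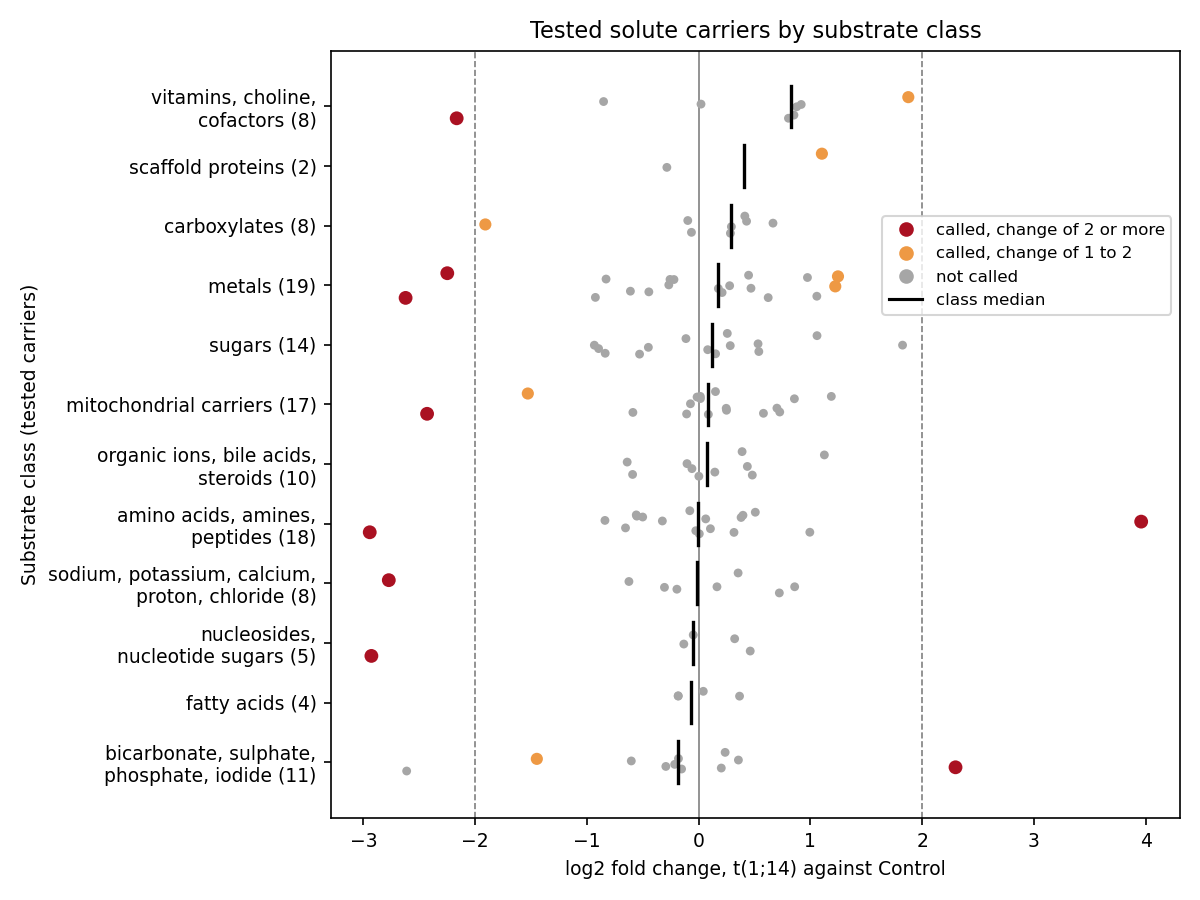
Log2 fold change of t(1;14) against Control (horizontal axis) for each of the 124 tested carriers, in rows by substrate class with the number tested. Dark red points passed the threshold of the methods, orange points passed the lower fold threshold alone, grey points were not called, black ticks are class medians and dashed lines mark a log2 fold change of 2. Most carriers lie within 1 of no change, and the 9 called members are spread over 7 of the 12 classes.

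All 19 carriers of metals were tested, and 2 were called lower, beside 4.3% of all tested probes. SLC30A4 carries zinc into vesicles. It read 11.49, 11.27 and 11.10 on the Control arrays, 8.60, 8.75 and 8.64 on the t(1;14) arrays, and 11.62, 11.87 and 11.87 on the Oligospermic arrays. The log2 fold change was -2.62 ± 0.14 (adjusted p = 0.00012), and it was -2.74, -2.62 and -2.50 within the slides. A second SLC30A4 probe fell by 1.42 (adjusted p = 0.0012).

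The other zinc carriers did not move together. SLC30 proteins move zinc out of the cytosol and SLC39 proteins move it in. SLC30A9, which acts in mitochondria, read 7.34, 7.80 and 7.45 in Control and 8.70, 8.83 and 8.81 in t(1;14) and rose at the lower threshold (log2 fold change 1.25 ± 0.15, adjusted p = 0.0011). That call was lost with normexp and with the median over its probes (0.85). SLC30A7, a zinc carrier of the Golgi, read 9.65, 9.44 and 9.87 in Control and 10.75, 11.07 and 10.81 in t(1;14) and also rose at the lower threshold (1.22 ± 0.16, adjusted p = 0.0015). That call was lost with the replicate number as a block (adjusted p = 0.014). The partners SLC30A5 and SLC30A6, which form 1 carrier of the secretory pathway, were both lower by p with smaller sizes, -0.92 ± 0.12 (adjusted p = 0.0014) and -0.61 ± 0.11 (adjusted p = 0.0048). SLC30A2, known for loading zinc into vesicles of secretory cells, overlapped between the groups (-0.22 ± 0.26). None of the 5 SLC39 members tested was called, and their log2 fold changes ran from 0.18 for SLC39A4 to 0.47 for SLC39A9. The probe that stood for SLC39A14 gave 0.45, and its others gave 0.66 and -2.12.

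**Figure D3:**
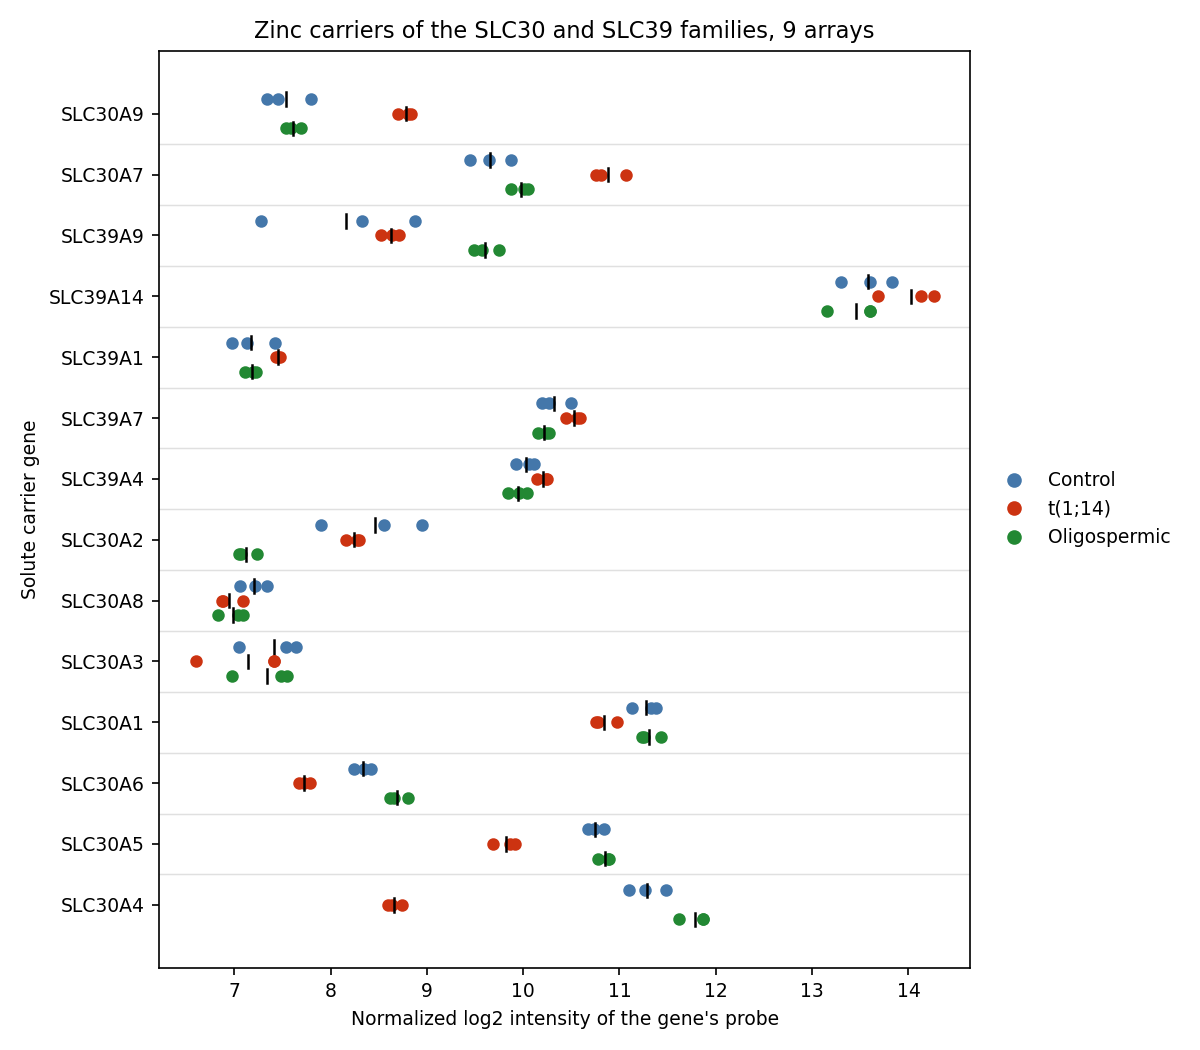
Normalized log2 intensity (horizontal axis) of the 14 zinc carriers of the SLC30 and SLC39 families (rows, ordered by the log2 fold change of t(1;14) against Control) on the 9 arrays, with group means as black ticks. SLC30A9 and SLC30A7 at the top lie higher in t(1;14) than in both other groups, SLC30A6, SLC30A5 and SLC30A4 at the bottom lie lower, and most rows between overlap or lie close together.

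For the other metals, SLC41A2, which carries magnesium, read 10.15, 10.15 and 9.80 in Control, 7.89, 7.65 and 7.81 in t(1;14), and 10.25, 10.03 and 10.18 in Oligospermic. It fell by 2.25 ± 0.15 on the log2 scale (adjusted p = 0.00015), and its second probe fell by 2.35. Its relative SLC41A1 lay the other way, with 5.07, 4.21 and 4.84 in Control and 5.63, 5.92 and 5.74 in t(1;14), but was not called (1.06 ± 0.24, adjusted p = 0.011). SLC11A2, the iron carrier that takes iron out of endosomes, was lower by p (-0.83 ± 0.13, adjusted p = 0.003), and SLC11A1, the metal carrier of macrophage phagosomes, was higher by p (0.97 ± 0.19, adjusted p = 0.0074). Of the listed macrophage markers tested, CD14 was higher by 1.30 (adjusted p = 0.005). CD163 and C1QA overlapped between the groups, with log2 fold changes of 0.50 (adjusted p = 0.16) and 0.20 (adjusted p = 0.69), and the markers' part in the SLC11A1 value was not tested.

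Of 9 carriers of vitamins, choline and cofactors, 8 were tested, and the class median of 0.83 was the highest among the classes. At the lower threshold 1 was called higher, beside 7.45% of all tested probes. At the threshold of the methods 1 was called lower, beside 4.3% of all tested probes. SLC23A2, which brings vitamin C into cells with sodium, read 8.88, 8.76 and 8.54 in Control, 6.68, 6.66 and 6.35 in t(1;14), and 9.29, 8.98 and 9.27 in Oligospermic, a fall of 2.16 ± 0.15 on the log2 scale (adjusted p = 0.00018). The other members that passed by p were higher. SLC44A4, a choline and thiamine pyrophosphate carrier, read 7.81, 8.92 and 9.18 in Control, 10.35, 10.50 and 10.68 in t(1;14), and 7.82, 8.55 and 8.40 in Oligospermic. It rose at the lower threshold (1.88 ± 0.36, adjusted p = 0.0062). The call was lost with slide (adjusted p = 0.011) or the replicate number as a block. It was also lost without any 1 of the t(1;14) arrays or Control replicate 2 (adjusted p from 0.015 to 0.029). A further 2 probes of SLC44A4 gave log2 fold changes of 2.36 and 2.35. Another 2 SLC44A4 probes of identical sequence were above background on no array. The folate carrier SLC19A1 differed by 0.88 ± 0.18 (adjusted p = 0.0079), the riboflavin carrier SLC52A2 by 0.85 ± 0.16 (adjusted p = 0.0065) and the lysosomal SLC46A3 by 0.92 ± 0.14 (adjusted p = 0.0028).

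Sugar carriers were 16, of which 14 were tested and none passed either threshold (limma). An unadjusted p under 0.05 was reached by 8 of the 14 (57.1%), beside 58.1% of all tested probes. SLC2A8, a glucose carrier abundant in testis, read 13.92, 13.89 and 13.85 in Control, 13.39, 13.49 and 13.19 in t(1;14), and 13.88, 13.76 and 13.92 in Oligospermic. The t(1;14) arrays lay below all others, but the difference of -0.53 ± 0.12 was not called (adjusted p = 0.012). SLC2A6 and SLC5A1, the sodium and glucose cotransporter of the gut, were lower by p, by -0.90 ± 0.12 (adjusted p = 0.0015) and -0.93 ± 0.17 (adjusted p = 0.0057), but the 4 other SLC5A1 probes ran the opposite way, from 0.29 to 0.92. SLC45A2, known from pigment cells, read 7.34, 5.71 and 8.39 in Control and 8.96, 9.10 and 8.85 in t(1;14), and the spread of the Control arrays left its difference of 1.82 ± 0.63 uncalled (adjusted p = 0.051). The general glucose carrier SLC2A1 overlapped between the groups (0.28 ± 0.27).

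Of 9 carboxylate carriers, 8 were tested. SLC16A7, the high-affinity lactate and pyruvate carrier MCT2 of sperm and other cells, read 9.0, 8.90 and 9.04 in Control, 7.39, 6.71 and 7.11 in t(1;14), and 8.56, 8.27 and 8.5 in Oligospermic. It fell at the lower threshold (-1.91 ± 0.19, adjusted p = 0.00052). Its one probe on the array is printed because it carried the only called change of a lactate carrier.
SLC16A7 probe: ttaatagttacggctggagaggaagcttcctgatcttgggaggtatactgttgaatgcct
SLC16A1, the lactate carrier of most cells, read 8.69, 8.19 and 8.38 in Control and 8.80, 8.66 and 8.68 in t(1;14), and the groups overlapped (0.29 ± 0.16, adjusted p = 0.16). SLC16A9 had the largest positive difference of the class, 0.67 ± 0.21, and was not called (adjusted p = 0.036).

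Of 18 mitochondrial carriers, 17 were tested, with a median of 0.09. SLC25A25 and SLC25A23 both move ATP with magnesium against phosphate under the control of calcium, and both fell. SLC25A25 read 4.07, 4.23 and 3.61 in Control, 1.99, 1.29 and 1.33 in t(1;14), and 2.75, 3.61 and 3.19 in Oligospermic. It was well above background on Control arrays alone, so Control was at least 1.29-fold higher (fitted log2 fold change -2.43 ± 0.25, adjusted p = 0.00064). SLC25A23 read 6.07, 6.55 and 6.10 in Control, 4.85, 4.51 and 4.78 in t(1;14), and 5.22, 5.21 and 5.63 in Oligospermic, and fell at the lower threshold (-1.53 ± 0.18, adjusted p = 0.00097). That call was lost with normexp (-0.57) and with the replicate number as a block (adjusted p = 0.011). SLC25A31, the ADP and ATP carrier of spermatogenic cells, read 9.04, 8.81 and 8.67 in Control and 8.74, 8.78 and 8.77 in t(1;14), and the groups overlapped (-0.07 ± 0.13, adjusted p = 0.66). SLC25A15, an ornithine carrier, and SLC25A43 were higher by p, by 0.73 ± 0.11 (adjusted p = 0.0024) and 0.86 ± 0.13 (adjusted p = 0.0025). SLC25A16 differed by 1.19 ± 0.26 and stood just outside the threshold on p.

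All 5 carriers of nucleosides and nucleotide sugars were tested, and 1 was called lower, beside 4.3% of all tested probes. SLC35A5, of the family that brings nucleotide sugars into the Golgi, read 10.29, 10.14 and 10.04 in Control, 7.42, 7.20 and 7.06 in t(1;14), and 10.01, 9.89 and 10.14 in Oligospermic. Its log2 fold change was -2.93 ± 0.14 (adjusted p = 0.00012), with -3.08, -3.08 and -2.62 within the slides. A second probe fell by 1.52 (adjusted p = 0.00074), but another was higher by 0.67 (adjusted p = 0.021), so the probes of SLC35A5 did not run the same way. SLC29A1, the nucleoside carrier of most cells, read 11.36, 11.81 and 11.98 in Control and 12.26, 11.80 and 12.48 in t(1;14), and the groups overlapped (0.46 ± 0.24).

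No member of the fatty acid class (4 of 4 tested) or of the organic ion, bile acid and steroid class (10 of 16 tested) was called by limma, with 0 and 1 members at an unadjusted p under 0.05, which 58.1% of all tested probes reached. The fatty acid carriers ran from -0.18 for SLC27A1 to 0.37 for SLC27A4. In the organic ion class, SLC22A17, a receptor for a lipocalin that carries iron, had the largest positive difference, 1.12 ± 0.42 (adjusted p = 0.066), and Control replicate 2 stood low at 10.79 beside 12.39 and 12.22. SLC22A7, an organic anion carrier, had the largest negative one, -0.64 ± 0.46 (adjusted p = 0.28). Of the scaffold proteins, SLC9A3R2 was higher at the lower threshold (1.1 ± 0.17, adjusted p = 0.003). The call was lost with slide (adjusted p = 0.013) or the replicate number as a block, with the median over its probes (0.89) and with normexp (0.41). It was also lost without t(1;14) replicate 2 (0.98) or 3 (adjusted p = 0.017). SLC9A3R1 was not called (-0.28 ± 0.11, adjusted p = 0.068).

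**Figure D4:**
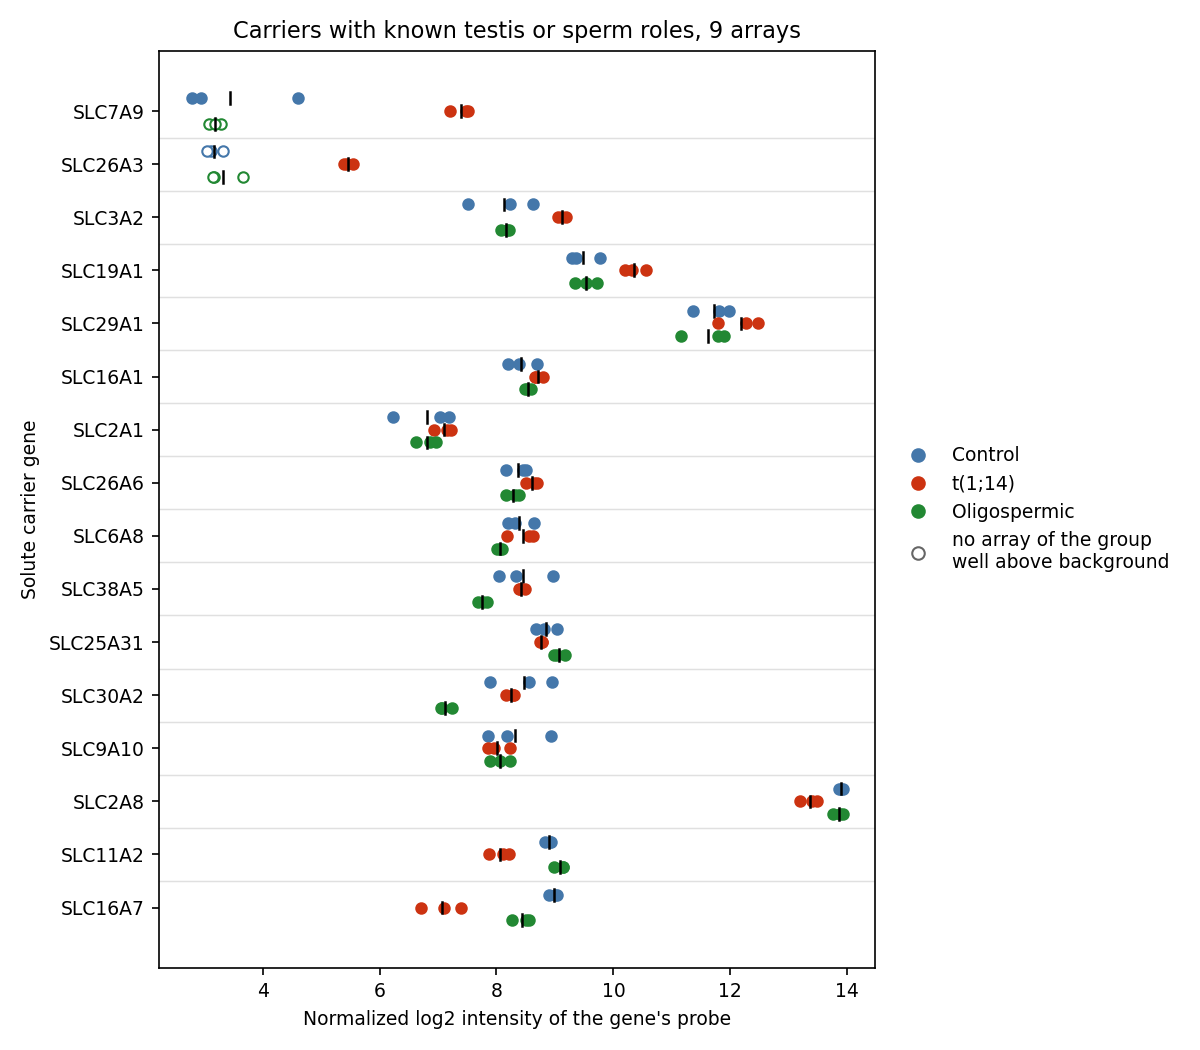
Normalized log2 intensity (horizontal axis) of the 16 carriers with a probe among those listed for a known role in testis or sperm (rows, ordered by the log2 fold change of t(1;14) against Control) on the 9 arrays, with group means as black ticks and open points for a group with no array well above background. SLC7A9 and SLC26A3 at the top were called at the threshold of the methods, SLC16A7 at the bottom was called at the lower threshold, SLC19A1 and SLC11A2 passed the test on p with smaller sizes, and most other rows overlap.

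How far a gene's value depended on its probe was read from the 55 genes with at least 2 tested probes. Between t(1;14) and Control, the median difference between the highest and the lowest log2 fold change of a gene's probes was 0.55. It was under 0.5 for 24 genes and over 1 for 14 genes, and 5 genes had 1 probe above 0.5 and another below -0.5. SLC25A37, which brings iron into mitochondria, had 6 tested probes. Of these, 3 gave log2 fold changes of -2.16 ± 0.18, -2.10 ± 0.15 and -1.94 ± 0.13, and the others gave -0.56, -0.17 and 0.25, the last from the probe that stood for the gene. With the median over a gene's probes in place of the representative probe, SLC12A5 and SLC35A5 were no longer called at the threshold of the methods and SLC44A4 was.

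**Figure D5:**
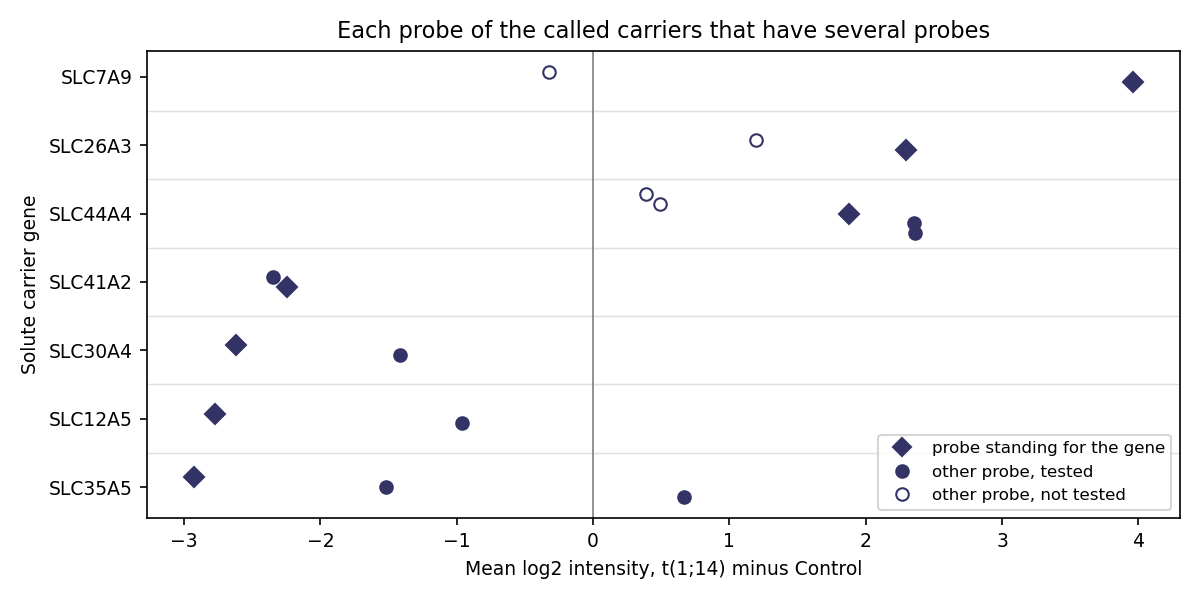
Mean log2 intensity of t(1;14) minus Control (horizontal axis) for each probe of the 7 called carriers that have several probes (rows). Diamonds are the probes that stood for the genes, filled circles are other tested probes and open circles are probes that were not tested because they were too dim. The probes of SLC41A2 lie together, those of SLC30A4 and SLC12A5 lie on the same side at unequal distances, and a probe of SLC35A5 lies on the opposite side.

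Because the translocation joins chromosomes 1 and 14, the members were also placed on the chromosomes of the RefSeq annotation of Sscrofa11.1, which matched 154 of the 155 names. On chromosome 1 lay 13 members, of which 12 were tested, and 2 were called lower, SLC30A4 and SLC25A25, the latter tested through the Control arrays alone. On chromosome 14 lay 10 members, of which 9 were tested, and SLC18A1, also tested through the Control arrays alone, was called lower. Of all tested probes on the array, 4.3% were called lower and 1.31% higher. No member of either chromosome was called higher, and the medians were -0.36 on chromosome 1 and 0.32 on chromosome 14, beside 0.05 for all tested members and 0.14 for all tested probes. Chromosome X held 6 members, of which 4 were tested and none was called at either threshold. Of all tested probes, 5.61% were called at the threshold of the methods and 19.1% at the lower threshold. Among them, the log2 fold changes were 0.86 for SLC25A43, 0.06 for SLC6A8 and -0.03 for SLC38A5. With this few members per chromosome, the counts are a description.

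The second comparison set the boar with few sperm and a normal karyotype against Control. Of 123 tested members, none was called in either direction at either threshold by limma, and 18 members (14.6%) had an unadjusted p under 0.05, beside 9.84% of all tested probes. Of all tested probes, 0.073% were called at the threshold of the methods (0.0453% higher and 0.0277% lower) and 0.0755% at the lower threshold (0.0478% higher and 0.0277% lower). The median log2 fold change was 0.01, and 104 of 123 members lay within 0.5 of no change. The arrays of the groups did not overlap for 24 members (19.5%), beside 15.7% of all tested probes. The largest positive difference was SLC4A4 at 1.52 ± 0.67 (adjusted p = 0.54), followed by SLC39A9, a zinc carrier of the secretory pathway, at 1.44 ± 0.39 (adjusted p = 0.28). SLC39A9 read 8.88, 8.33 and 7.27 in Control and 9.75, 9.57 and 9.49 in Oligospermic, without overlap. Among members well above background on all arrays of both groups, the largest negative difference was SLC30A2 at -1.35 ± 0.27 (adjusted p = 0.16). SLC1A1, a glutamate carrier, was well above background on 2 of 3 Control arrays and no Oligospermic array, and the groups overlapped. The Control mean was at least 1.07-fold higher (fitted log2 fold change -1.43 ± 0.48, adjusted p = 0.40). SLC30A2 read 8.95, 7.90 and 8.56 in Control and 7.24, 7.05 and 7.07 in Oligospermic, without overlap. The spread of the Control arrays was the widest of the 3 groups, and a p that misses the threshold does not show that these carriers were alike.

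The third comparison set the boars with poor semen against each other, and it shares its t(1;14) arrays with the first. Of 124 tested members, 3 were called higher and 7 lower in t(1;14), 8.06% beside 6.82% of all tested probes (1.93% higher and 4.89% lower). At the lower threshold, 13 were called higher and 13 lower, 21% beside 25%. With the normexp background correction, 0 were called higher and 3 lower at the threshold of the methods, and SLC30A4, SLC35A5 and SLC41A2 were the ones still called. With a filter that both groups had to pass, SLC44A4 was the 1 member called higher, beside 492 of 36793 tested probes. The groups did not overlap for 79 members (63.7%), beside 70.9% of all tested probes, and the median log2 fold change was 0.10, beside 0.14. SLC7A9 rose by 4.22 ± 0.12 on the log2 scale (adjusted p = 1.8e-05), at least 13-fold because no Oligospermic array was well above background. SLC26A3 rose with a fitted log2 fold change of 2.13 ± 0.16 (adjusted p = 8.1e-05). SLC44A4, which passed the lower threshold alone against Control, rose by 2.26 ± 0.21 (adjusted p = 0.00019).

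The carriers that fell against Oligospermic had log2 fold changes of -3.13 ± 0.10 for SLC12A5, -3.12 ± 0.11 for SLC30A4, -2.79 ± 0.13 for SLC35A5, -2.62 ± 0.14 for SLC23A2 and -2.37 ± 0.11 for SLC41A2, with adjusted p from 1.8e-05 to 2.7e-05. With the median over its probes, SLC35A5 differed by -1.41 and was no longer called at the threshold of the methods. SLC4A4 was also called lower, with the bound of at least 4.42-fold given above because no t(1;14) array was well above background. SLC18A1 fell with a fitted value of -2.03 ± 0.30 (adjusted p = 0.0015), just inside the fold threshold, and Oligospermic was at least 1.16-fold higher. SLC25A25 was not tested here because it was well above background in neither group. Some carriers passed the lower threshold here and did not pass it against Control. SLC30A2 was higher in t(1;14) than in Oligospermic by 1.13 ± 0.10 (adjusted p = 0.00015), SLC45A2 by 1.72 ± 0.12 (adjusted p = 6.6e-05), SLC41A1 by 1.19 ± 0.12 (adjusted p = 0.00032), SLC11A1 by 1.14 ± 0.19 (adjusted p = 0.0021), SLC52A2 by 1.03 ± 0.14 (adjusted p = 0.00083) and SLC16A9 by 1.08 ± 0.15 (adjusted p = 0.0012). SLC2A6 had a log2 fold change of -1.43 ± 0.11 (adjusted p = 8.3e-05), and SLC5A10, a sugar cotransporter of the kidney, was higher by 1.29 ± 0.11 (adjusted p = 0.00014). Each of these calls at the lower threshold was lost under at least 1 alternative. The smallest log2 fold change over the alternatives was 0.22 for SLC5A10, 0.42 for SLC41A1, 0.51 for SLC16A9, 0.67 for SLC52A2 and -0.67 for SLC2A6. It was 0.86 for SLC30A2 and 0.91 for SLC11A1, while SLC45A2 missed on p alone (limma, adjusted p up to 0.026). The gap between a carrier's difference from Control and its difference from Oligospermic is the difference between those groups, for which no carrier was called.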

How the data were processed

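RNA of 9 testicular biopsy samples was labelled with cyanine 3 by the authors and hybridized to a 60K Agilent array, and spots were read with Feature Extraction 11.5.1.1. The deposited spot intensity values were background-subtracted and detrended by that software. The authors also deposited log2 values of 38759 probes, which served to choose a gene's probe and as an alternative. Processed signals of the 60889 sense and other non-control probes were put on the log2 scale, and the 9 arrays were quantile normalized together, and each comparison was fitted on its 6 arrays with limma 3.58.1 in R 4.3.3, without covariates and with p adjusted by the Benjamini-Hochberg method over all tested probes. A probe needed at least 2 of 3 arrays of a group well above background without an outlier flag. No aligner or build enters the values, the study placed probes on an earlier assembly than Sscrofa11.1, and the array files give no position, so only names and chromosomes are given.

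The genes named are the carriers called in any comparison, the largest rise and fall of t(1;14) against Control in each substrate class, and 38 carriers listed for testis or sperm roles, of which 16 had a probe. A carrier that this rule names is not reported here. SLC3A1, SLC6A19, SLC34A1, the additional zinc and vitamin carriers and the other names were chosen after their values were seen. The members and all lists were chosen with earlier results of these data known. Replicate numbers were checked for pairing: arrays sharing a number deviated from their group means with correlations of -0.285, -0.194 and 0.139 between t(1;14) and Control and of -0.421, -0.335 and 0.121 between t(1;14) and Oligospermic, so the numbers pair no arrays there. Arrays sharing a slide gave 0.339, 0.109 and 0.119 against Control and 0.489, 0.292 and 0.33 against Oligospermic, and slide, which the methods do not use, was fitted as a block as an alternative. Between Oligospermic and Control the number is also the slide, and the values were 0.478, 0.136 and 0.101. The fit of each comparison was also tested on simulated data. The alternatives were 75th percentile scaling, normalization over 6 arrays, normexp with an offset of 50, the authors' values, no filter or a filter in both groups, a slide block, a replicate block, a single model of the 9 arrays, variances with an intensity trend, other choices of probe, and the omission of each array in turn.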

Additional observations from a re-analysis of the deposited data

How the results depend on the processing

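No call changed direction under any alternative. With normexp background correction of the mean signal, 0 members were called higher and 2 lower in t(1;14) against Control at the threshold of the methods, and 3 and 6 at the lower threshold, and against Oligospermic 0 and 3, and 5 and 7. All probes called fell with it, to 239 higher and 757 lower against Control and 278 and 828 against Oligospermic. With a filter in both groups, 0 members were called higher against Control and 1 against Oligospermic at the threshold of the methods, since dim carriers are no longer tested. Of all probes tested with it, 387 of 37273 were called higher against Control and 492 of 36793 against Oligospermic. With the replicate block, 3 members were called higher against Control at the lower threshold in place of 6, with slide as a block 2 were called higher and 7 lower, and 5 and 10 at the lower threshold, and with either block no carrier was called between Oligospermic and Control, while the calls among all probes of that comparison went from 29 to 0. Leaving out 1 array gave 2 to 3 members higher and 7 to 8 lower against Control at the threshold of the methods, and 4 to 11 and 10 to 11 at the lower threshold, with 11 higher without Control replicate 1. Against Oligospermic it gave 3 higher and 6 to 7 lower, and at the lower threshold 12 to 15 higher and 12 to 15 lower. SLC18A1 against Oligospermic, near the fold threshold, lost its call under 75th percentile scaling, normexp, the authors' values and without t(1;14) replicate 2 or 3 or Oligospermic replicate 1 or 3. SLC16A7 was called against Control without t(1;14) replicate 1, SLC44A4 without Control replicate 3, and SLC4A4 with all 9 arrays in one model. At the lower threshold against Control, SLC30A9 lost its call with normexp (0.99) and the median over its probes (0.85), SLC34A1 with normexp (-0.47), SLC25A23 with normexp (-0.57) and the replicate block (adjusted p = 0.011), and SLC30A7 with the replicate block (adjusted p = 0.014). The cause of these changes was not tested where no construction is named.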

Other observations

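Other transport genes outside the SLC names were listed beside the carriers, and 11 of 20 were on the array and 10 were tested. Between t(1;14) and Control, none was called at the threshold of the methods and 1 was lower at the lower threshold, UCP3, a mitochondrial carrier of muscle, at -1.42 (limma, adjusted p = 0.0017). The largest fall was that of SV2A at -2.32, without overlap of the groups, but it was not called (limma, adjusted p = 0.017). An unadjusted p under 0.05 was reached by 5 of the 10, beside 58.1% of all tested probes. The median of the 10 was 0.12, beside 0.14 for all tested probes. Basigin (BSG), which brings lactate carriers such as SLC16A1 to the membrane, differed by 0.10 (adjusted p = 0.58), and its relative NPTN was higher by p (0.83, adjusted p = 0.0051).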
